A study of Mus musculus with 6 samples.

Results

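The regions described here are the peaks of the class Other in an eCLIP comparison of the RNA-binding protein ZFP36L2 with a control antibody, taken as every row of the authors' deposited table whose feature is given as exactly Other. The rule found 2645 of 55449 peaks, and their kinds were read from 1286 gene names. The other classes of the table are coding sequence, introns, 3′ and 5′ untranslated regions and miRNAs. By RefSeq biotype the class Other was mostly noncoding: 886 peaks (33.5%) carried the name of a long noncoding RNA and 764 (28.9%) that of a pseudogene. Another 562 peaks (21.2%) had a name with no RefSeq match. The label held only in part, as 344 peaks (13.0%) carried a name that RefSeq gives as protein-coding, predicted genes and RIKEN clones included.

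The cells were MLTC-1, a mouse Leydig tumour line, and in all libraries they had been exposed to 254 nm ultraviolet light at 400 mJ per cm2. The groups were ZFP36L2 immunoprecipitation (IP, 2 libraries), its inputs (2 libraries), rabbit IgG IP (1 library) and its input (1 library). The authors' deposited table compares ZFP36L2 with IgG and has no column for a library, so neither levels per library nor their spread nor the sequencing depth can be given, and IgG rests on 1 IP library. A positive log2 fold change means more signal with ZFP36L2, a direction read from the name of the table because no header states it. A peak was called higher where the adjusted p was under 0.05 and the log2 fold change at least 1, and lower where that p went with -1 or less. Among the defining genes of Leydig cells, 8 of 12 had a peak of any class, against 1 of 6 for Sertoli cells, 1 of 5 for germ cells, 5 of 5 for macrophages and 6 of 6 for cardiac muscle. Of all these markers, Lhcgr was the one with a peak in the class Other, and the part of other cell types in the results was not tested.

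ZFP36L2 belongs to the tristetraprolin family of CCCH zinc finger proteins, which bind AU-rich elements, typically in the 3′ untranslated regions of mRNAs, and recruit the machinery that removes the poly(A) tail. Long noncoding RNAs lack a long coding frame. Many stay in the nucleus, where some build nuclear bodies and others silence imprinted genes or the inactive X chromosome, and some are cut into microRNAs or small nucleolar RNAs. Processed pseudogenes are copies of spliced mRNAs returned to the genome, and their sequence can be close to that of the parent mRNA.

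Sequence could be read only where a peak lay in the 300-base windows around RefSeq start sites (250 bases upstream to 50 downstream), since no genome was used here. Of the called peaks, 2 were reached, and only in part. They are shown with 15 bases before the peak in lower case and the covered part of the peak in capitals, 5′ to 3′ on the plus strand of GRCm38.p6 (mm10), from RefSeq. Rpl32l, at chr10:20208459-20208488, belongs to a peak called higher, and Gm49067, at chr14:55682004-55682067, to a peak called lower.
Rpl32l: acgaggtggctgccaTCTGTTTTGCGGCAT
Gm49067: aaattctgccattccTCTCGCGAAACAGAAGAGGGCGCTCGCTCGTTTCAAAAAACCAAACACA
The Rpl32l peak stood at 2.77 (adjusted p = 1.3e-03) and the Gm49067 peak at -3.17 (adjusted p = 0.0295) by the authors' deposited table. The covered parts, 15 of 68 bases and 49 of 68 bases, were 53.3% and 51.0% A or T. Neither holds ATTTA, the core of the AU-rich element.

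A further 26 peaks of the class could be read whole, none of them called, with log2 fold changes from -2.95 to 0.20 by the authors' deposited table. The lowest and the highest of these are shown to give the kind of sequence reached, which lies beside promoters and was on median 40.2% A or T (9.09 to 70.0%). The uncalled peak of 4833438C02Rik with the lowest value and the peak that touches it lie at chr19:46304561-46304572 and chr19:46304573-46304612 on the minus strand. Airn, at chr17:12769678-12769694 on the plus strand, lies opposite the beginning of Igf2r. All letters are in lower case because no motif was found in them.
4833438C02Rik, lowest: gccgcggggtgt
4833438C02Rik, touching peak: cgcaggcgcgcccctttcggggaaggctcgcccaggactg
Airn: ggaggcgctccgtggcc
Searched on the transcript strand, ATTTA was in 0 of the 26 and in 3 of the 411 peaks of any class that could be read whole (0.730%). TATTTAT, which contains ATTTA, was in 0 of either set. Of all 32851 start-site windows, which are longer than the peaks and were searched on both strands, 34.1% held ATTTA and 5.60% held TATTTAT. These letters describe peaks near start sites alone and do not stand for the class.

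Several RNAs of the class are hosts of microRNAs, and the mature sequences of hosts with a peak called higher are shown with the seed (bases 2 to 8) in capitals, from RefSeq. Meg3 hosts miR-770 on the plus strand of chromosome 12, and Lncppara hosts let-7c and let-7b on the plus strand of chromosome 15. The called peaks of Lncppara carry its name but do not lie within its RefSeq span.
mmu-miR-770-5p: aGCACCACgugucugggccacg
mmu-miR-770-3p: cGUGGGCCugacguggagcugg
mmu-let-7c-5p: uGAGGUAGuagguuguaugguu
mmu-let-7c-2-3p: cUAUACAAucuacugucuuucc
mmu-let-7b-5p: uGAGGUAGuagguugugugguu
mmu-let-7b-3p: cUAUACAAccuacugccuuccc
Both let-7 5p arms share the seed GAGGUAG, and both 3p arms the seed UAUACAA. Hosts were taken here as names whose RefSeq span holds a whole hairpin of the RefSeq sequences used, on the same strand, which excludes microRNAs beyond that span. Of 33 such hairpins in 16 host names, 11 of them long noncoding RNAs, 0 overlapped a peak of the class. The nearest of the 33 was the let-7c hairpin, 625 nucleotides downstream of an uncalled peak of Lncppara. Peaks of the class miRNA are kept apart from the class, and in Mirg one of them lay 26 nucleotides from the mir-410 hairpin. A peak on a hairpin may therefore be left out of the class by its label. The 0 and this distance thus do not show that the hairpins lack peaks.

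As a class, these peaks had a median log2 fold change of -1.33 (quartiles -2.05 and -0.25), against -1.06 over all peaks, by the authors' deposited table. Values above 0 were found for 20.1% of the class and 23.6% of all peaks. Called higher were 89 peaks (3.36%), against 2.22% of all peaks. Called lower were 161 peaks (6.09%), against 5.44% of all peaks. The share called higher exceeded those of introns (2.17%), coding sequence (2.35%), 3′ untranslated regions (1.46%) and 5′ untranslated regions (3.18%) and lay below that of the 63 miRNA peaks (4.76%), while the share called lower was below that of introns (7.04%). These are shares without a test, because peaks of 1 RNA touch each other and are not independent.

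Neat1, the RNA that scaffolds nuclear paraspeckles, supplied 44 of the 89 peaks called higher (49.4%). With its peaks left out, 45 of 2601 peaks (1.73%) were called higher, below the share of all peaks, and the share called lower was 6.19%. Along Neat1, values lay between 2.87 and 5.45 with a median of 3.98 by the authors' deposited table. The 2 peaks that also carry the name Gm28006, near the 5′ end, stood at 2.87 and 3.18, in the lower part of that range. Every Neat1 peak was called higher, and no other name with 10 or more peaks in the class had more than 2 called higher. Among names with fewer peaks, Gm47920 had 7 of 9 called higher and Anp32b-ps1 had 5 of 5.

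**Figure D1:**
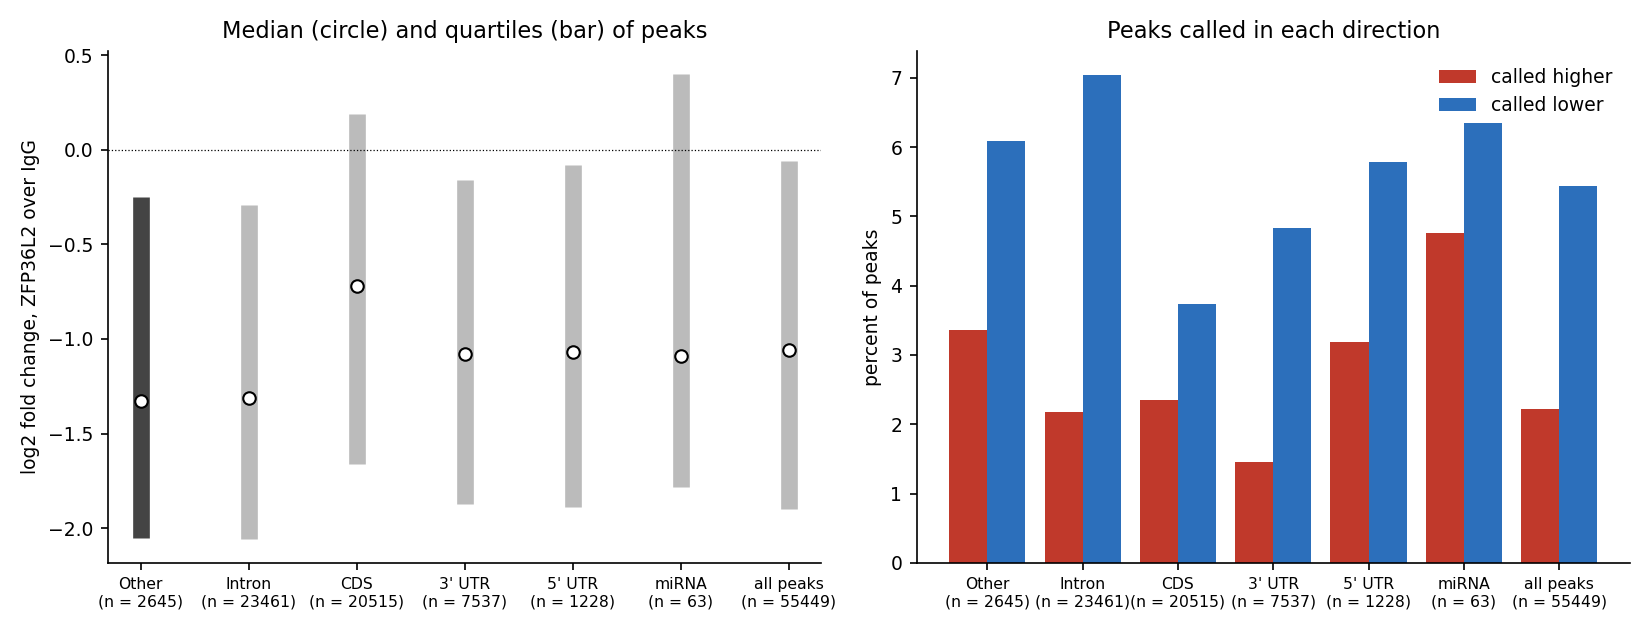
Left, the median (circle) and quartiles (bar) of the log2 fold change, ZFP36L2 over IgG, of the peaks of each class. Right, the percent of each class called higher and called lower. The class Other has the lowest median, -1.33, and 3.36% of its peaks called higher, against 2.22% of all peaks.

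Within the class, predicted genes (Gm names) made up 1416 peaks (53.5%), with 22 called higher (1.55%) and 94 lower (6.64%). Over all peaks these shares were 2.22% and 5.44%. RIKEN clones made up 334 peaks (12.6%), with 2 higher (0.599%) and 17 lower (5.09%). Named long noncoding RNAs were 193 peaks in 21 names, with 50 higher (25.9%) and 11 lower (5.70%). By RefSeq biotype, long noncoding RNAs without Neat1 had 12 of 844 peaks called higher (1.42%) and 65 lower (7.70%), with a median of -1.64 by the authors' deposited table. Pseudogenes by RefSeq biotype had 16 of 764 called higher (2.09%) and 27 lower (3.53%), with a median of -0.91 by the authors' deposited table. Without Anp32b-ps1, 11 of 759 (1.45%) were called higher and 27 (3.56%) lower. Without Neat1 (a setting added once the values were known), named long noncoding RNAs had 8 of 151 peaks called higher (5.30%), against 2.22% of all peaks. Of these 8, 3 were in Meg3, 2 in Lncppara, 2 in Airn and 1 in Peg13. More were called lower, 11 of the 151 (7.28%, against 5.44% of all peaks). Kcnq1ot1 is not among them, as its spelling put it with the RNAs named for the opposite strand. By median, RefSeq pseudogenes stood nearer to 0 than long noncoding RNAs without Neat1.

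**Figure D2:**
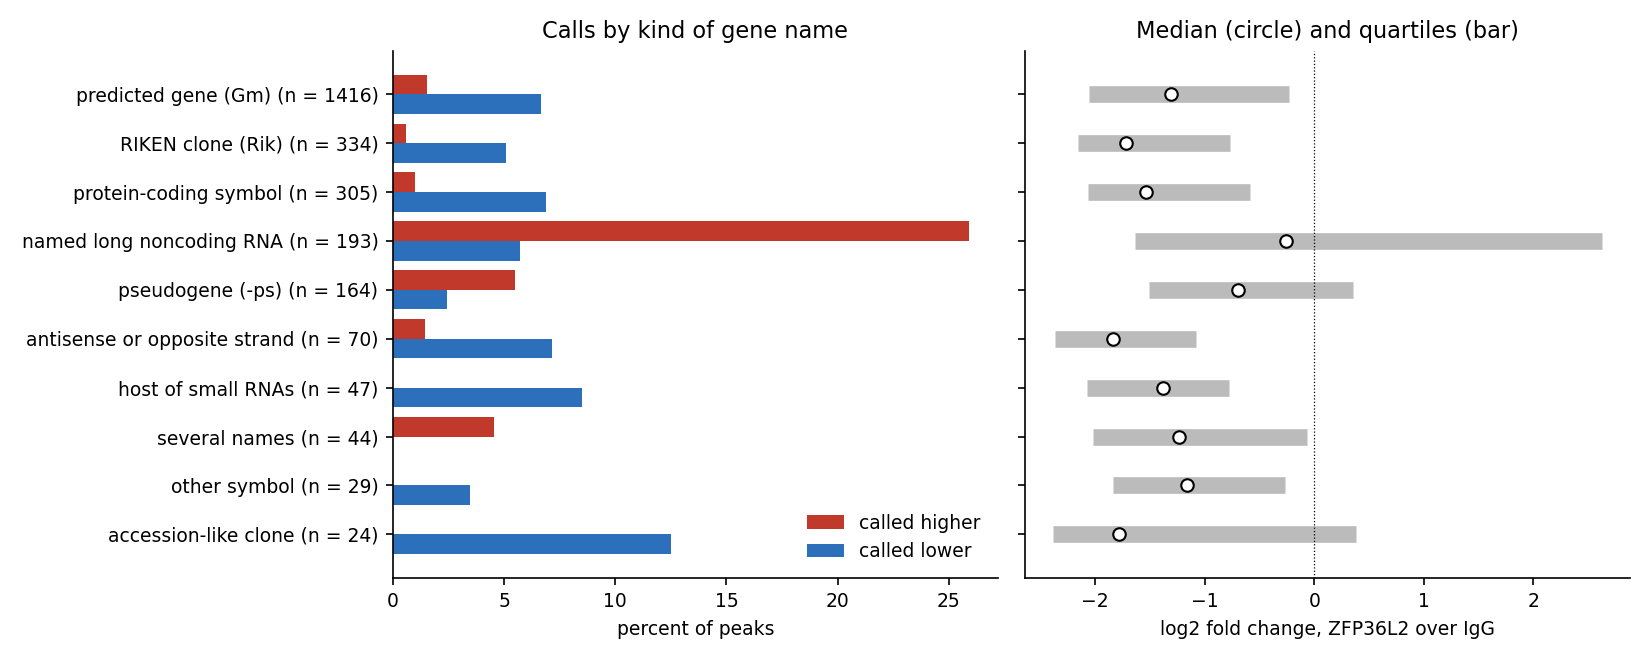
Percent of peaks called higher and called lower (left) and the median and quartiles of the log2 fold change (right) for the kinds of gene name with 20 or more peaks. Named long noncoding RNAs reach 25.9% called higher, and 42 of these 50 peaks carry the name Neat1 alone.

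The calls were spread unevenly over names. Of the 1286 names, 620 (48.2%) had 1 peak, 31 (2.41%) had a peak called higher and 108 (8.40%) had one called lower. Meg3 alone had both. Of the names with a call, 22 had 1 peak called higher and 65 had 1 called lower. Touching peaks differed by a median of 0.27 in size of log2 fold change over 721 pairs, and peaks of the same name that did not touch by 0.79 over 639 pairs, by the authors' deposited table. Merged where they touched, the peaks formed 1919 stretches, of which 64 were called higher and 120 lower.

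Meg3, a maternally expressed imprinted RNA of the Dlk1-Dio3 locus, changed sign along its length. From 5′ to 3′ its peaks had -2.18 (adjusted p = 0.0295), 3.55 (adjusted p = 4.8e-49), 3.28 (adjusted p = 3.5e-25) and 2.95 (adjusted p = 7.2e-19) by the authors' deposited table. The 3 downstream peaks were called higher and the most 5′ one, at chr12:109542269-109542295, lower. In addition, 2 peaks of the class miRNA, named mmu-mir-770, lay between the second and last of the higher Meg3 peaks, with 3.77 (adjusted p = 1.7e-31) and 3.16 (adjusted p = 2.5e-23) by the authors' deposited table. They began 255 and 369 nucleotides past the end of the Mir770 hairpin, so they cover none of the microRNA sequences shown above. Another peak of the class miRNA in Meg3, named mmu-mir-1906-1, lay upstream of the higher peaks. It stood at -0.95 by the authors' deposited table, without a call. Rian, a host of small nucleolar RNAs transcribed from the same locus, had 11 peaks and Mirg, a microRNA host there, had 2 peaks, with medians of -0.27 and -1.65 by the authors' deposited table, and no call.

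The other imprinted RNAs had calls in both directions. Airn, the paternally expressed antisense RNA that silences Igf2r, had 16 of 20 peaks above 0, with a median of 0.54 by the authors' deposited table. Its 2 peaks called higher lay in the 3′ part, at 3.59 (adjusted p = 4.6e-07) and 2.63 (adjusted p = 7.8e-07), while its most 3′ peak stood at -2.91 without a call by the authors' deposited table. Igf2r itself, the receptor of insulin-like growth factor 2, had 1 of 15 coding peaks called higher, with a median of 0.52 by the authors' deposited table. Peg13, an imprinted RNA inside Trappc9, had 1 of 3 peaks called higher, at 3.79 (adjusted p = 4.6e-04), beside uncalled peaks at 1.07 and -0.57 by the authors' deposited table.

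Kcnq1ot1, the paternally expressed antisense RNA that silences genes around Kcnq1, had the most negative value of the class. From 5′ to 3′ its 6 peaks had -5.04, -4.16, -4.24, -1.23, -0.94 and -2.96 by the authors' deposited table, all below 0. The peaks at -5.04 (adjusted p = 7.1e-10), -4.24, -4.16 and -2.96 were called lower. The pair at -1.23 and -0.94, which touch each other, was not called. H19, the maternally expressed growth-restraining RNA, had 5 peaks between -2.13 and 1.13 by the authors' deposited table and no call. Over the 7 imprinted RNAs with a peak, 3 had a peak called higher and 2 had one called lower, Meg3 being in both counts; of their 51 peaks, 6 were higher (11.8%, against 2.22% of all peaks) and 5 lower (9.80%, against 5.44%), and the median was 0.20 by the authors' deposited table.

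**Figure D3:**
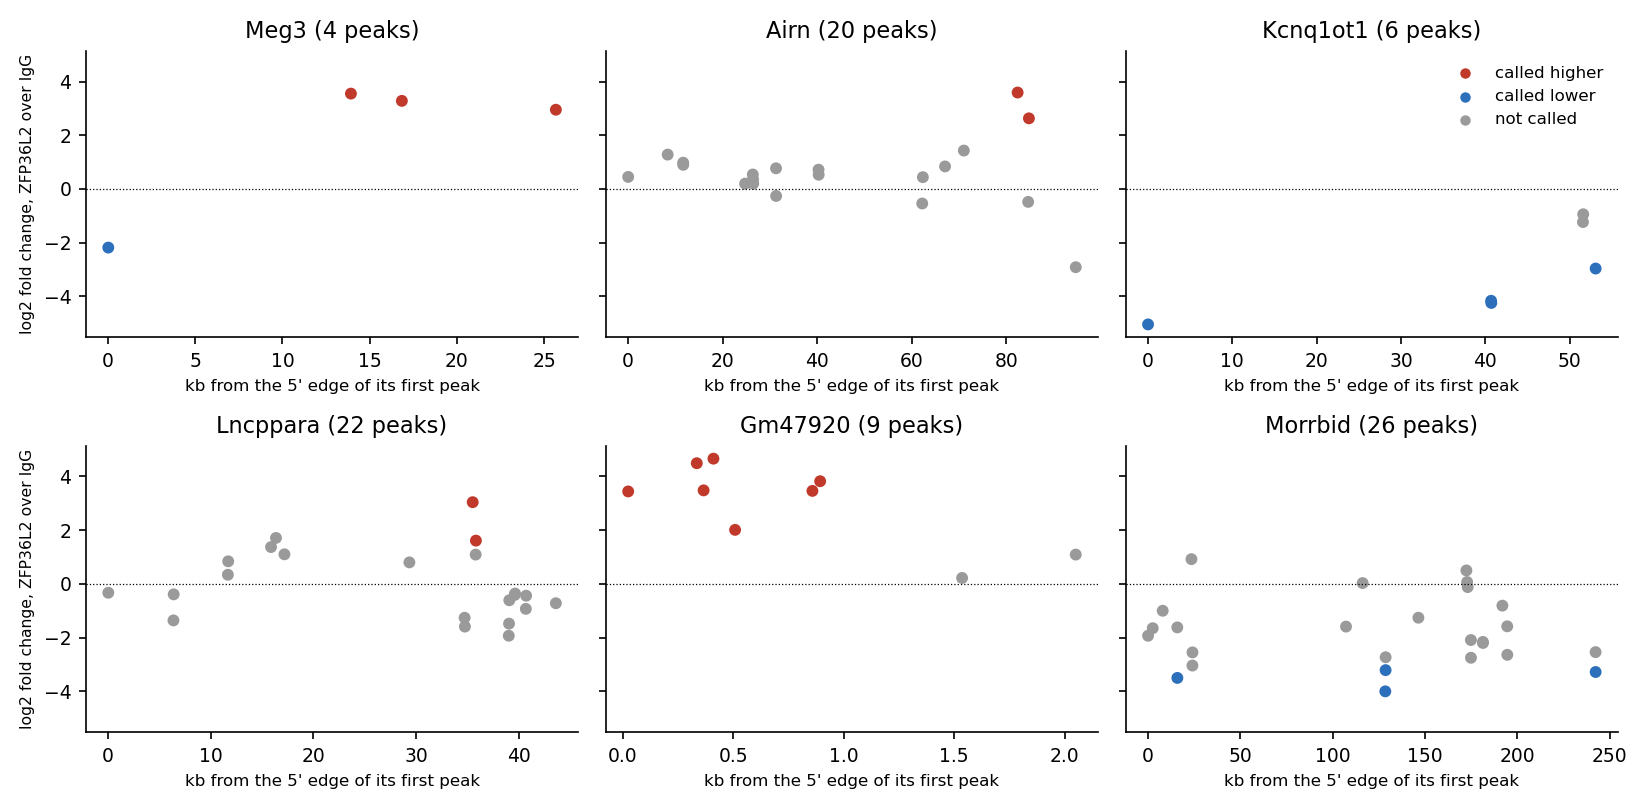
Log2 fold change of each peak, ZFP36L2 over IgG, against its distance in kb from the 5′ edge of the most 5′ peak of the same name, for Meg3, Airn, Kcnq1ot1, Lncppara, Gm47920 and Morrbid. Meg3 turns from -2.18 to values of 2.95 and more, Kcnq1ot1 stays below 0 throughout, and the calls of Gm47920 lie in its 5′ part.

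Of the RNAs known for X inactivation, Jpx and Ftx had peaks called lower. Jpx, an activator of Xist, had 2 of 3 peaks called lower, with -3.70 (adjusted p = 2.1e-03), -2.83 (adjusted p = 0.0372) and -2.79 (adjusted p = 0.209) by the authors' deposited table. Ftx, another RNA of the X inactivation centre and host of miR-374b and miR-421, had 2 of 3 called lower, with -3.61, -3.09 and -1.83 by the authors' deposited table. Firre, which anchors the inactive X, had -3.08 and -2.53 without a call by the authors' deposited table. Xist, the RNA that coats the inactive X, had peaks at -2.02 and 1.29, neither of them called, by the authors' deposited table. Together these 4 names had 10 peaks, 9 of them below 0, with a median of -2.81 against -1.06 over all peaks by the authors' deposited table; of the class, 20.1% of peaks were above 0. Called lower were 4 of the 10, against 5.44% of all peaks, which are 1 touching pair in Jpx and 1 in Ftx, and 0 were called higher.

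Among the RNAs listed for nuclear architecture and chromatin, 18 had a peak in the class, 4 with a peak called higher (Airn, Meg3, Neat1 and Peg13) and 5 with one called lower (Dleu2, Ftx, Jpx, Kcnq1ot1 and Meg3). Of all 1286 names of the class, 2.41% had a peak called higher and 8.40% one called lower. The 165 peaks of the 18 RNAs held 50 called higher (30.3%, against 2.22% of all peaks), 44 of these in Neat1. Called lower were 10 (6.06%, against 5.44% of all peaks). Malat1, the abundant RNA of nuclear speckles, had no peak in the class. Pvt1, which neighbours Myc, had 14 uncalled peaks between -2.18 and -0.01, and Lncpint, a p53-induced RNA, had 26 uncalled peaks between -1.47 and 2.01 by the authors' deposited table. 2210408F21Rik, transcribed on the opposite strand beside Lncpint, had 24 uncalled peaks between -2.12 and 1.99 by the authors' deposited table. Trp53cor1, also known as lincRNA-p21, had 6 peaks from -2.27 to -0.81, and Tug1 had 3 from -2.00 to -0.40, none of them called, by the authors' deposited table.

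Hosts of small RNAs, by name, had 47 peaks, of which 0 were called higher (2.22% of all peaks were) and 4 lower (8.51%, against 5.44% of all peaks). Meg3 and Lncppara are not in this group. Of 8 hosts of small nucleolar RNAs, Snhg6 had 1 peak called lower (-3.05, adjusted p = 0.0195, by the authors' deposited table), which made 1 of the 25 peaks of the list (4.00%), and the list's median was -0.93. Snhg1 shared its peak with Snord22, at 1.17 (adjusted p = 0.759) by the authors' deposited table. Of the 5 listed microRNA hosts, Dleu2, Ftx and Mir99ahg had peaks called lower, 5 of the list's 34 (14.7%), and 0 were called higher. Mir99ahg had 2 of 15 called lower, the lowest at -4.47 (adjusted p = 5.5e-09) by the authors' deposited table. Dleu2, host of miR-16-1, had 1 of 9, at -2.49 (adjusted p = 0.0447) by the authors' deposited table. The 16 peaks of 9 structural small RNAs, the 7S RNA gene Rn7s2 and small nucleolar RNAs, ranged from -1.47 to 1.17 by the authors' deposited table, without a call.

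Lncppara, which lies upstream of Ppara on the same strand and hosts the let-7 sequences above, had 2 of 22 peaks called higher. They stood at 3.04 (adjusted p = 4.1e-10) and 1.61 (adjusted p = 4.4e-03) by the authors' deposited table, among values from -1.93, with 9 above 0. Both called peaks carry the name Lncppara but do not lie within the RefSeq span by which it was taken as a host. Ppara, the fatty acid receptor, had 11 of 25 intronic peaks called higher. Gm47920 lies inside Zmiz1, a coactivator gene, on the same strand, and had 7 of 9 peaks called higher. From 5′ to 3′ they had 3.44, 4.49, 3.48, 4.66, 2.01, 3.46, 3.82, 0.22 and 1.09 by the authors' deposited table, the last 2 uncalled. Zmiz1 had 10 of 66 intronic peaks called higher and 2 called lower. Gm26971, with 1 peak at 4.10 (adjusted p = 9.1e-09) by the authors' deposited table, lies inside Gse1, where 69 of 164 intronic peaks were called higher. Of all intronic peaks, 2.17% were called higher and 7.04% lower.

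Peaks of other classes near those of the class were counted too. Without Neat1, 11 of 45 (24.4%) had a peak of another class called higher within 10 kb on the same strand, against 1 of 161 called lower (0.621%) and 26 of 2395 uncalled ones (1.09%). The 11 peaks come from few loci, with 7 in Gm47920, 3 in Meg3 and 1 in Gm26971, so the share is that of these names. Whether a peak that lies in an intron of a coding gene on the same strand comes from the noncoding RNA or from the pre-mRNA cannot be told apart.

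Some of the largest values were those of predicted genes. Gm37352, a predicted gene on chromosome 8 outside RefSeq genes, held the highest of the class, 6.43 (adjusted p = 3.0e-18), and 5.26 (adjusted p = 1.5e-11) in the peak that touches it, beside -1.59 and -0.19 by the authors' deposited table. Gm3617, a pseudogene inside Npas2, had 1 peak at 4.97 (adjusted p = 4.6e-10), and Gm36235, a long noncoding RNA, 1 of 4 peaks called at 4.70 (adjusted p = 1.8e-10) by the authors' deposited table. Of the 402 peaks outside RefSeq genes, 5 (1.24%) were called higher and 38 (9.45%) lower. Of the 1330 inside noncoding RefSeq genes, 60 (4.51%) were called higher and 66 (4.96%) lower. All 44 Neat1 peaks are among those 60, so the larger share called higher is mostly that of Neat1. Over all peaks the shares were 2.22% and 5.44%.

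**Figure D4:**
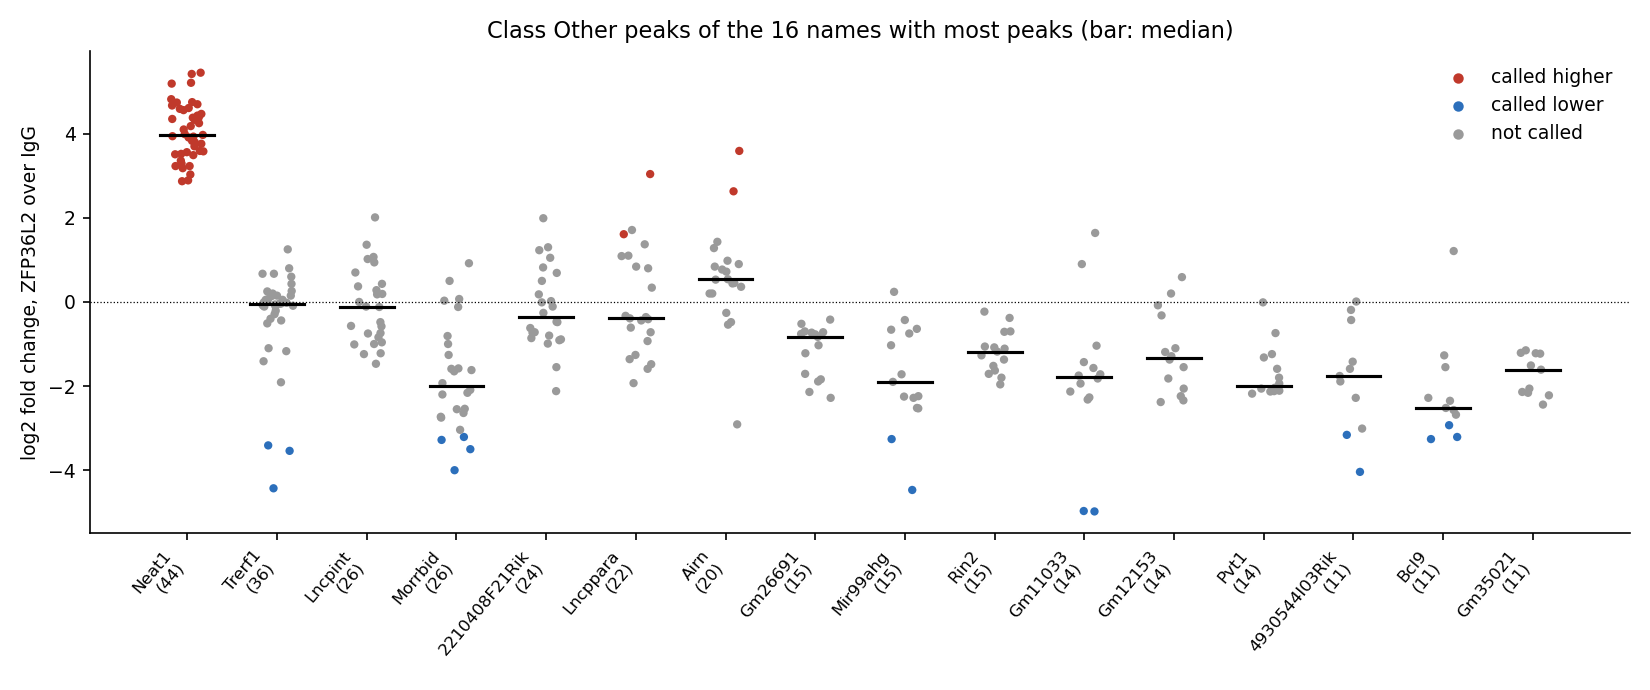
Log2 fold change of every peak of the 16 names with most peaks in the class, coloured by call, with the median as a bar and the number of peaks in parentheses. All 44 Neat1 peaks are called higher, and the medians of the other names lie between -2.52 and 0.54.

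Pseudogenes were compared with the gene of the same name stem. Calr-ps, a copy of the calreticulin mRNA, had 1 peak, at 3.96 (adjusted p = 9.8e-26), and Calr, an endoplasmic reticulum chaperone gene, had 4 of 4 coding peaks called higher with a median of 3.33 by the authors' deposited table. Anp32b-ps1 had 5 of 5 peaks called higher, from 1.44 to 2.89, and Anp32b, which encodes an acidic nuclear histone chaperone, 14 of 14 with a median of 1.86 by the authors' deposited table. In both pairs gene and copy were called in the same direction. The sources used here do not say how reads matching both a gene and its copy were handled, so these pairs cannot be told apart.

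Other pairs were not. Kpna2-ps had 2.31 and 2.26 without a call (adjusted p = 0.282 and 0.457) by the authors' deposited table, while both peaks of Kpna2, an importin gene, were called lower with a median of -3.62. Rybp-ps had 0.99 without a call, while both peaks of Rybp, a Polycomb component gene, were called lower with a median of -3.34 by the authors' deposited table. Of 90 names ending in -ps, 46 had a stem gene with peaks in other classes. The pseudogene median lay above that of the stem gene in 32 and at or below it in 14, and the medians over names were -0.40 for pseudogenes and -1.12 for stem genes. Stem genes had a peak called higher for 6 names, 2 of which were also called as pseudogenes, and one called lower for 10 names, 0 of which were. More overlap was not possible, so these counts do not show that gene and copy differ. Of the 5 pseudogenes called higher, 3 had no stem gene with peaks. Neither had the 2 called lower, Slc2a4rg-ps and Tmem181b-ps.

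**Figure D5:**
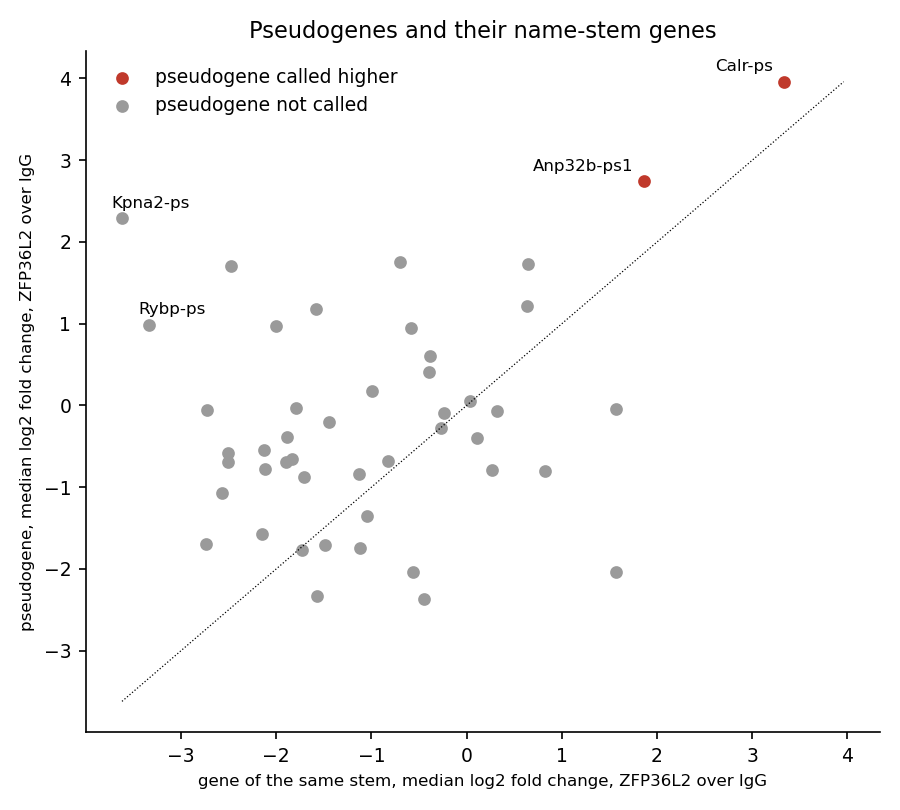
Median log2 fold change of each pseudogene ending in -ps against that of the gene of the same stem, 46 pairs, with the line of equality dotted. Calr-ps and Anp32b-ps1, called higher, stand beside stem genes called higher, and Kpna2-ps and Rybp-ps far above theirs.

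Pseudogenes ending in -ps had 9 of 164 peaks called higher (5.49%) and 4 lower (2.44%, against 5.44% of all peaks). Anp32b-ps1 supplied 5 of the 9, and without it 4 of 159 (2.52%) were higher, near the 2.22% of all peaks. The 30 ribosomal protein pseudogenes had a median of -0.09 over 41 peaks by the authors' deposited table. By 1 peak each, 2 of these names were called higher, and 0 were called lower. Of all names of the class, 2.41% had a peak called higher and 8.40% one called lower. The called ribosomal protein pseudogenes were Rpl14-ps1, at 2.54 (adjusted p = 1.5e-06), and Rps16-ps2, at 2.88 (adjusted p = 0.0138) by the authors' deposited table. Slc2a4rg-ps had 3 of 4 peaks called lower, with -4.60, -4.59, -3.05 and -1.21 by the authors' deposited table. The RefSeq pseudogenes Gm12346, inside Ssh2, and Gm9067 had a peak at 3.79 (adjusted p = 1.2e-18) and 3.42 (adjusted p = 2.4e-15) by the authors' deposited table.

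Protein-coding symbols, with Gm and Rik names left out, had 3 of 305 peaks called higher (0.984%, against 2.22% of all peaks). Called lower were 21 (6.89%, against 5.44% of all peaks). Lhcgr, the receptor of luteinizing hormone and a defining gene of Leydig cells, had its only class Other peak at 3.93 (adjusted p = 1.1e-14) by the authors' deposited table, at chr17:88722146-88722224 inside the gene. Its 15 intronic peaks had a median of -0.07, from -2.01 to 0.97, by the authors' deposited table, and none was called. Elk4, an ETS transcription factor gene, had 1 of 9 peaks called higher, at 4.43 (adjusted p = 5.6e-09) by the authors' deposited table, which lies in Mfsd4a on the opposite strand; the other 8 lay from -2.18 to 0.35. Rpl32l was the remaining one.

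Trerf1 had the second most peaks of the class, 36, and none in any other class. It encodes a regulator known in human cells to activate CYP11A1, the first enzyme of steroid synthesis. Its median was -0.04, with 15 values above 0 and a highest of 1.25 by the authors' deposited table. Called lower were 3 peaks, at -4.43 (adjusted p = 1.0e-06), -3.54 (adjusted p = 4.2e-05) and -3.41 (adjusted p = 0.0162) by the authors' deposited table. The peaks at -4.43 and -3.41 touch each other. Over all peaks, 5.44% were called lower. Khdrbs1, which encodes the splicing regulator Sam68, had 2 of 6 called lower, the lowest at -3.94 (adjusted p = 1.2e-07), and Bcl9, a Wnt cofactor gene, 3 of 11, the lowest at -3.26 by the authors' deposited table. Outside the class, Bcl9 also had 2 of 6 intronic and 1 of 9 coding peaks called lower, while Khdrbs1 had 0 of 5 called lower. For the 87 protein-coding names with peaks both in the class and elsewhere, the median in the class was -1.72, against -1.11 elsewhere, and lay below it for 62 names and above it for 25.

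The 161 peaks called lower lay in 108 names (8.40% of names). The 89 called higher lay in 31 names, or 45 in 29 names without Neat1. Over all peaks, 5.44% were called lower. The names that follow were picked largely by their calls. Morrbid, an RNA known to limit Bcl2l11 in myeloid cells, had 4 of 26 called lower, with a median of -2.01 and values from -4.00 to 0.92 by the authors' deposited table. Gm11033 had 2 of 14, touching each other at -4.97 and -4.98 at its 5′ end, against a median of -1.79 by the authors' deposited table. BC065397 had both of its peaks called lower, at -4.74 and -3.99 by the authors' deposited table. Gm29358 (-4.72, adjusted p = 5.6e-09), Gm20752 (-4.32, adjusted p = 2.3e-08) and Gm8173 (-3.82, adjusted p = 4.9e-07) had 1 peak each called lower by the authors' deposited table. Gm11266 had 2 of 5 called lower and A930004J17Rik, inside Srsf4, had 3 of 3, the lowest at -4.22 and -3.66 by the authors' deposited table. Lockd, a noncoding RNA beside Cdkn1b, had 2 of 4, the lowest at -3.49 by the authors' deposited table.

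RNAs named for the opposite strand of a gene had 1 of 70 peaks called higher (1.43%, against 2.22% of all peaks) and 5 lower (7.14%, against 5.44%), with a median of -1.84 by the authors' deposited table. Of the 5 called lower, 4 are those of Kcnq1ot1 described above and 1 is in Gata6os. Without Kcnq1ot1 (a setting added once the values were known), 1 of 64 (1.56%) was called lower. The one called higher was Grin1os, at 3.34 (adjusted p = 3.8e-03), between neighbours at 1.91 and 1.28 by the authors' deposited table. Of those opposite regulators of the gonad, Nr5a1os, opposite the steroidogenic factor gene, had 1 uncalled peak at -0.50, and Wt1os, opposite the Wilms tumour gene, 2 uncalled peaks at -1.84 and -1.86 by the authors' deposited table. Gata6os had 10 peaks, all below 0, and the one called lower stood at -3.71 (adjusted p = 2.5e-03) by the authors' deposited table.

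The balance of high and low values in the class depends on how values are centred. As deposited by the authors, 71 peaks of the class lay at 3 or more and 167 at -3 or less (29.8% higher), but with the median of all peaks subtracted 103 lay at 3 or more and 25 at -3 or less (80.5% higher), compared with 21.5% and 80.8% over all peaks. Without Neat1 these shares of the class were 14.8% as deposited and 70.2% after centring, below those of all peaks on both scales. The class median with Neat1 was then -0.27. The sources used here do not give the authors' normalization of ZFP36L2 to IgG, so a peak called lower is lower on the deposited scale only.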

How the data were processed

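ZFP36L2 and IgG eCLIP libraries of MLTC-1 cells were sequenced with matched inputs. The submitters' processing notes list UMI-tools (1.1.1), cutadapt (3.2), STAR (2.7.7a), DESeq2 (1.34.0) and build mm10, without their roles. The authors deposited, per peak, a log2 fold change, and −log10 values of the p-value and adjusted p-value, which were converted back here. The sources used here do not give how peaks were called or values normalized, nor whether inputs entered. The table has 0 columns of libraries, so depth and error per value are unknown, as is the spread that the p-values measure. The labels name no separate cultures, so that spread may be technical.

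Values were taken as deposited, and the adjusted p is the authors', over all peaks. Names were sorted into kinds by spelling and RefSeq biotype (GRCm38.p6), where 961 of 1286 (74.7%) matched; of 2031 peaks with 1 matched name, 1691 (83.3%) lay in that RefSeq gene. Peaks with several names (44) counted for each in counts by name, and 8 had none. Strand came from the start-site windows. Starts were made 1-based. Classes and lists are described by counts and medians without tests, with Python 3.11.15 and pandas 2.3.3, and the counting was tested on simulated data.

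The members and lists were chosen with earlier results of these data known. Named are, within the class, the 10 names with the smallest adjusted p in each direction, the 5 largest and the 5 most negative log2 fold changes, the 5 with most peaks and with most calls in each direction, up to 4 members of each list, and Neat1, Malat1, Meg3, Kcnq1ot1, Xist, Lhcgr and Gm37352. Lncppara, H19, Pvt1, Tug1, Trp53cor1, Bcl9, Elk4, Lockd, Gm26971, Rpl32l, Gm49067, 4833438C02Rik, the RNAs opposite genes of the gonad, Grin1os and, except for Anp32b-ps1, Calr-ps and Slc2a4rg-ps, the pseudogenes ending in -ps were named after their values were seen.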

Additional observations from a re-analysis of the deposited data

How the results depend on the processing

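No paired analysis was possible because the authors' deposited table has no column of a library and the ZFP36L2 and IgG groups share no replicate number; for the same reason no library was left out and no other normalization or count filter was run. The share called higher was 3.36% and became 1.73% without Neat1, since that name holds 44 of the 89 peaks. It was 2.41 to 3.42% with a stricter adjusted p, with a fold change limit of 2 or none on the log2 scale, after centring, with adjustment over the class alone, with touching peaks merged, with 1 peak per name, with 1 name per peak, and without peaks in a coding gene on their strand. The share called lower was 6.09% and became 3.82% at an adjusted p under 0.01, the stricter limit itself, and was 5.78 to 8.32% otherwise. Centring and dropping the fold change limit could not move either share, so these 2 settings say nothing of stability. Both kept the authors' adjusted p, and 0 peaks of the class met that p alone. Every peak called lower stood at -2.18 or less, so the fold change limit of 2 could not move the lower share either. The class median of -1.33 became -0.27 when the median of all peaks was subtracted, by construction, and stayed within -1.37 and -1.33 otherwise. Chosen after the data were seen, leaving out Neat1 moved the higher share of named long noncoding RNAs to 5.30%, against 25.9% with it, and leaving out Kcnq1ot1 moved the lower share of RNAs named for the opposite strand to 1.56%, against 7.14% with it. Motif content over all peaks was not run, as no genome was used here. Depth per peak is unknown, so an uncalled peak may be one with few reads.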
